A study of Mus musculus with 8 samples.

Results

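Maf, Mafg, Mafk, Prox1, Hsf4 and Hsf2 are 6 transcription factor genes of lens fiber differentiation and the stress response, taken from 21631 protein-coding genes on mouse chromosomes 1 to 19 and X. For each gene the body, as given by the RefSeq table of assembly GRCm38.p6, was widened by 5 kb at either end. Chromatin loops with an anchor in that window, topologically associating domains (TADs) touching it and CTCF peaks overlapping it were then collected, and all 6 genes were found in the gene table.

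Maf is a large basic leucine zipper factor that binds crystallin promoters and is needed for fiber cells to elongate, while Mafg and Mafk are small Maf proteins that lack an activation domain and pair with CNC and Bach partners. Prox1 is a homeodomain factor required for fiber elongation and cell cycle exit, Hsf4 is the heat shock factor most associated with the lens and with inherited cataract, and Hsf2 is a related factor active in development. A loop is a pair of distant sites that touch more often than their surroundings, a TAD is a stretch of chromosome whose sites touch mostly one another, and CTCF is the DNA-binding protein at which cohesin often halts as it extrudes loops.

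Hi-C, which counts contacts between all pairs of genomic sites, was available for v6.5 mouse embryonic stem (ES) cells and for lens epithelium and lens fiber cells of CD-1 newborns. The newborns were at postnatal day 0.5 and the lenses were separated by microdissection, with 30 lenses in each of 2 replicates, and the ES cells were wild type, grown without feeders on gelatin with LIF at 24 ng/ml, with about 2000000 cells in each of 2 replicates. All Hi-C cells were fixed with 2.0% formaldehyde for 10 min. CTCF ChIP-seq came from 1 sample of each lens cell type, made from 200 lenses, and no CTCF data of ES cells were used here. The labels give 1 sample per cell type, whereas the study's methods speak of replicates, and 1 peak list per cell type was used. The replicates were merged before loops and TADs were called, so that each cell type has 1 list, the spread between replicates is not known and cell types are compared without a test. The lists were not brought to equal depth. Each list describes an average over a whole cell population, and in the comparison of ES cells with lens, the cell type cannot be told apart from culture against tissue or from strain. The lists hold no expression values, so the labelled cell types could not be checked against marker genes.

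On these chromosomes 8453 loops were listed for ES cells, 8005 for epithelium and 7680 for fiber cells, with a median of 56, 51 and 63 observed contacts per loop. The observed over expected ratio given below divides the raw contact count of a loop by the count that HiCCUPS expected from the donut of map around it, and its 95% interval is an exact Poisson interval of the observed count that covers counting error only. The median ratio of all loops was 3.06 in ES cells, 3.05 in epithelium and 2.83 in fiber cells. Sizes are distances between anchor midpoints. The CTCF lists held 16374 peaks in epithelium and 23774 in fiber cells. The share of peaks found in both was not counted over the whole lists. Counts of peaks within 100 kb of single genes, and of shared peaks among them, are thus given below without such a share. By the paper's counts, most epithelium peaks were shared with fiber cells. The fiber list is the longer, so a larger count in fiber cells is not read as a difference between cell types.

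The 6 genes differed from one another in which cell type held their loops. Maf had no loop in ES cells and many in both lens cell types, Prox1 had 5 loops in ES cells and almost none in lens, and Mafk had none in any list. In ES cells 9 loops had an anchor at 4 of the 6 genes (Mafg, Prox1, Hsf4 and Hsf2), against 37.3% of all genes with at least 1 loop. In epithelium 7 loops had an anchor at 2 of the 6 (Maf and Prox1), against 36.2% of all genes. In fiber cells 5 loops had an anchor at 2 of the 6 (Maf and Hsf4), against 34.5% of all genes. The counts lay close to the genome-wide share in both lens lists and above it in ES cells, and with 6 genes no difference between lists is read from them. No gene of the 6 had a loop in all 3 lists, an arrangement found in 21.3% of all genes.

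**Figure D1:**
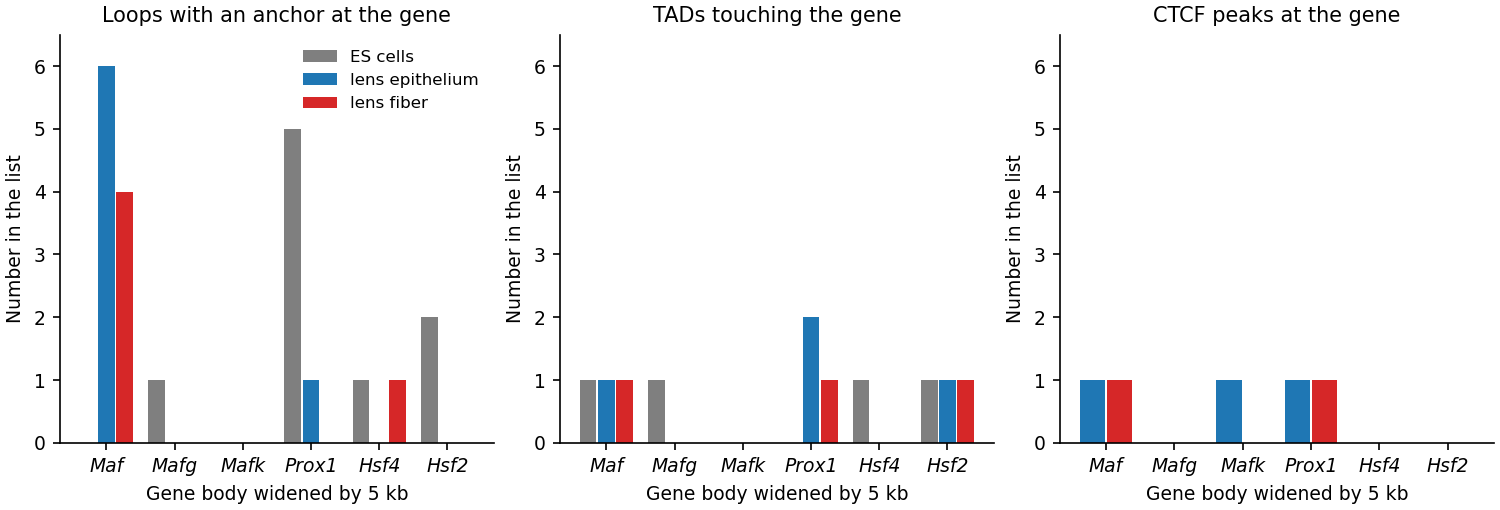
Numbers of loops, TADs and CTCF peaks (vertical axes) at each of the 6 genes (horizontal axis, gene body widened by 5 kb), in ES cells (grey), epithelium (blue) and fiber cells (red). The loops of Maf are 6 in epithelium, 4 in fiber cells and 0 in ES cells, while those of Prox1 are 5 in ES cells, 1 in epithelium and 0 in fiber cells; CTCF was measured in lens only.

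What the genes were joined to is given list by list, although different genes made up the loops of each list. Maf had 6 of the 7 epithelium loops, 4 of the 5 fiber loops and none in ES cells, while Prox1 had 5 of the 9 ES cell loops. The counts below thus cannot separate cell types from genes, and loops of 1 gene are not independent. All 9 far anchors of the ES cell loops overlapped a protein-coding gene, compared with 3 of 7 in epithelium and 0 of 5 in fiber cells. Over all anchors of each list that share was 61.2%, 61.7% and 61.5%. None of the 9 ES cell loops was found in either lens list with both anchor midpoints within 10 kb, against 43.0% of all ES cell loops. Of the 7 epithelium loops 3 were found in the fiber list, against 55.5% of all epithelium loops, and 3 of the 5 fiber loops were found in the epithelium list, against 57.8% of all fiber loops. All 3 shared loops belonged to Maf.

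Maf (chromosome 8, 115703253 to 115706894) is a short gene of 3.642 kb, and no other protein-coding gene lies within 5 kb of it. In ES cells the nearest loop anchor was 1230 kb away. Among all genes, 11 had no ES cell loop and at least 4 loops in each lens list, limits chosen after the values of Maf were seen.

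In epithelium 3 of the 6 Maf loops reached toward higher coordinates and 3 toward lower coordinates. The higher-coordinate loops spanned 425 kb with 146 observed contacts (ratio 2.99, 2.52 to 3.51), 660 kb with 34 contacts (ratio 4.66, 3.23 to 6.51) and 725 kb with 111 contacts (ratio 2.71, 2.23 to 3.26). None of their far anchors overlapped a protein-coding gene. The lower-coordinate loops spanned 275 kb with 123 contacts (ratio 2.22, 1.85 to 2.65), 950 kb with 61 contacts (ratio 2.47, 1.89 to 3.18) and 1225 kb with 61 contacts (ratio 2.93, 2.24 to 3.76). The 950 kb and 1225 kb loops ended in Wwox, which encodes an oxidoreductase with WW domains, and the 275 kb loop ended at no gene. The near anchors of the 275 kb and 1225 kb loops stopped 3253 bp short of the Maf body and count only through the widening.

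In fiber cells all 4 Maf loops reached toward higher coordinates, and no loop joined Maf to the Wwox side. They spanned 325 kb with 170 contacts (ratio 2.30, 1.96 to 2.67), 440 kb with 42 contacts (ratio 3.35, 2.41 to 4.53), 650 kb with 161 contacts (ratio 2.52, 2.15 to 2.95) and 725 kb with 119 contacts (ratio 2.20, 1.82 to 2.63). The 440, 650 and 725 kb loops matched the 425, 660 and 725 kb loops of epithelium, with anchor midpoints at most 7.5 kb apart. The 725 kb loop used the same bins in both lists, with 2.71 in epithelium and 2.20 in fiber cells, and the intervals of these ratios overlapped. For the other matched pairs the anchor widths differed (10 kb in one list and 25 kb in the other), so their ratios are not compared. The 325 kb loop of fiber cells had no match in epithelium. The Wwox anchor of the 1225 kb epithelium loop was also used in fiber cells, where it joined the far anchor of the 725 kb loop over 1975 kb (91 contacts, ratio 2.72) and passed over Maf.

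The TADs at Maf followed the same split between ES cells and lens. In ES cells Maf lay inside a TAD of 2020 kb (114445001 to 116465000). In epithelium a TAD of 735 kb (115705001 to 116440000) and in fiber cells a TAD of 745 kb (115705001 to 116450000) began within the Maf gene body and ended at the far anchor of the 725 kb loop. Listed borders fell on multiples of 5 kb, a step wider than the 3.642 kb Maf body. The midpoints of that loop's anchors lay 7.5 kb and 2.5 kb from the corners of the TAD in epithelium, and 7.5 kb and 12.5 kb in fiber cells. A TAD touched 4 of the 6 genes in ES cells, 3 in epithelium and 3 in fiber cells, against 43.4%, 22.8% and 31.6% of all genes.

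Each lens cell type had 1 CTCF peak at Maf, beyond its higher-coordinate end, and these were the only CTCF peaks within 100 kb of the gene. In epithelium the summit was at 115709617, 2723 bp from the gene, with a fold enrichment of 6.35 over background. In fiber cells it was at 115709663, 46 bp away from the first, with a fold enrichment of 7.40. The median fold enrichment of all peaks was 5.81 in epithelium and 6.45 in fiber cells, so that both peaks were a little above the middle of their lists. The far anchor of the 725 kb loop held a peak in both lists, with a fold enrichment of 6.90 in epithelium and 9.78 in fiber cells. The far anchors of the 425 kb and 660 kb epithelium loops held no epithelium peak, whereas fiber peaks with fold enrichments of 7.93 and 5.68 lay there. The Wwox anchor of the 950 kb epithelium loop held the strongest epithelium peak at any of these anchors (fold enrichment 10.7), and a fiber peak of 14.7 lay at the same place although fiber cells had no loop there.

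**Figure D2:**
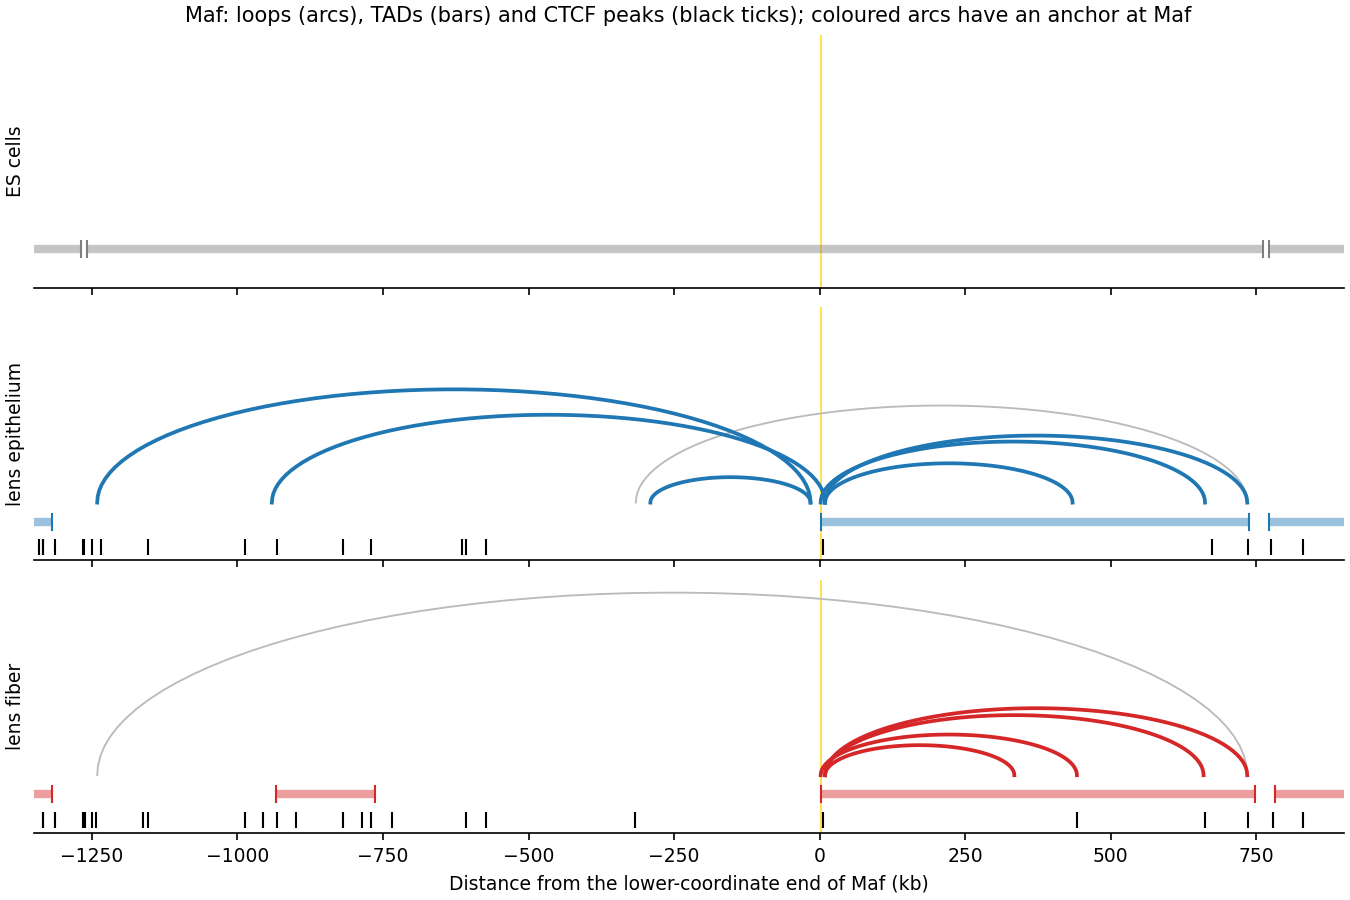
Loops (arcs), TADs (bars) and CTCF peaks (black ticks) around Maf (yellow) in ES cells, epithelium and fiber cells; the horizontal axis is the distance in kb from the lower-coordinate end of the gene, arc height is proportional to loop size, coloured arcs have an anchor at Maf and grey arcs do not. Both lens panels show a TAD of 735 or 745 kb that starts at Maf, loops on its higher-coordinate side in both, and loops to the lower-coordinate side in epithelium; CTCF was not measured in ES cells.

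Prox1 (chromosome 1, 190118035 to 190170827) showed the opposite distribution. It is the longest of the 6 genes at 52.793 kb, and loops were listed for 59.8%, 64.7% and 63.3% of all genes over 50 kb in ES cells, epithelium and fiber cells. It had 5 loops in ES cells, and 1.45% of all genes had at least 5. The loops to Lhx4 and Esrrg had anchors 25 kb wide, and with anchors of 10 kb or less 3 of the 5 were left. At least 5 loops in ES cells together with at most 1 in epithelium and none in fiber cells was found in 44 genes, limits chosen after the values of Prox1 were seen.

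All 5 ES cell loops of Prox1 ended at another gene of chromosome 1. The loop to Lhx4, a LIM homeobox gene, spanned 34425 kb with 19 contacts (ratio 6.83, 4.11 to 10.7), and 0.485% of all ES cell loops were at least as long. The loop to Hlx, another homeobox gene, spanned 5450 kb with 24 contacts (ratio 16.6, 10.7 to 24.8), the highest ratio among all member loops. The loop to Esrrg, which encodes an orphan nuclear receptor, spanned 2550 kb with 28 contacts (ratio 4.80, 3.19 to 6.94). Toward higher coordinates, the loop to Atf3, a stress-induced leucine zipper factor, spanned 1010 kb with 22 contacts (ratio 5.29, 3.31 to 8.01). The shortest, to the phosphatase gene Ptpn14, spanned 445 kb with 25 contacts (ratio 7.68, 4.97 to 11.3).

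Some of these far anchors were also joined to each other in ES cells. Lhx4 and Hlx were joined over 28990 kb (14 contacts, ratio 20.7, 11.3 to 34.8), and Hlx and Esrrg over 2875 kb (24 contacts, ratio 5.38, 3.45 to 8.01). Prox1, Lhx4 and Hlx were thus connected pairwise, as were Prox1, Hlx and Esrrg. The Lhx4 anchor took part in 9 ES cell loops and in 0 loops of either lens list. Its other ends included the homeobox genes En1 (35125 kb, 41 contacts), Lhx9 (16900 kb, 21 contacts) and Lmx1a (11950 kb, 20 contacts). The remaining ends were at Fev and Cryba2 (80850 kb, 15 contacts), Ier5 (640 kb, 13 contacts), BC034090 (500 kb, 36 contacts) and Acbd6 (145 kb, 26 contacts). These loops rest on 13 to 41 contacts, so their ratios have wide intervals.

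Promoters lying in these anchors are shown to give the sequence at the joined sites, although anchors of 5 to 25 kb do not resolve which element in them was in contact. Each window runs from 250 bases before to 50 bases after a transcript start in RefSeq (GRCm38.p6), 5′ to 3′ on the strand of the gene, with CpG dinucleotides in capitals. The Prox1 window lies at chr1:190170778-190171077 on the minus strand and inside the near anchors of all 5 loops, the Lhx4 window at chr1:155741978-155742277 on the minus strand and the Esrrg window at chr1:187608756-187609055 on the plus strand.
Prox1: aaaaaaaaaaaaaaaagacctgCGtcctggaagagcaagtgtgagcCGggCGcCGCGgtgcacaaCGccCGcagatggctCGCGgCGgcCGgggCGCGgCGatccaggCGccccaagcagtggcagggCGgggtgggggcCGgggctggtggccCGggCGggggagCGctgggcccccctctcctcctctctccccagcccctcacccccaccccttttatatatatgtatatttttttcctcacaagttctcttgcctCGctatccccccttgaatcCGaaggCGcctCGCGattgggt
Lhx4: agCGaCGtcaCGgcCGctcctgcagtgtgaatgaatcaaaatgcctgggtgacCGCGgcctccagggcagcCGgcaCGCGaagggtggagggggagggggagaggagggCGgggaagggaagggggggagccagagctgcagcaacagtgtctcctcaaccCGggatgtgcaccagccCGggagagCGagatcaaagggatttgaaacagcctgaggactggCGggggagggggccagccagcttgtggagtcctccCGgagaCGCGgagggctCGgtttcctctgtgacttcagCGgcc
Esrrg: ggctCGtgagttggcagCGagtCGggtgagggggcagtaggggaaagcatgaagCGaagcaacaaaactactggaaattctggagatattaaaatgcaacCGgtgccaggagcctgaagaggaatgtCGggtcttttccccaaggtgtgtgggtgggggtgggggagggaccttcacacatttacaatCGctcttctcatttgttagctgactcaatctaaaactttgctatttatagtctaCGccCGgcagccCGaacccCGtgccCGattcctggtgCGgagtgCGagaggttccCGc
The Prox1 window held 25 CpG in 300 bases, the Lhx4 window 19 and the Esrrg window 15, and the windows of Ptpn14 and Atf3 in the other anchors held 40 and 27. The median over 32851 promoter windows was 7, with quartiles of 3 and 20, so that all 5 were above the median and 3 were above the upper quartile. These windows belong to 27025 genes and include genes outside the 21631 protein-coding ones, such as Gm51552 with 4 CpG. A median over protein-coding genes alone was not computed. No promoter window of the table lay whole inside the Hlx anchor. A second Prox1 start, at chr1:190169466-190169765, held 14 CpG. The CTCF core letters CCNNNAGNGGC, searched on both strands, occurred in none of these 6 windows and in 7.66% of all windows.

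In epithelium Prox1 had a single loop of 600 kb with 107 contacts (ratio 2.18, 1.78 to 2.63). The largest of its 4 FDR values was not below 0.01, so it dropped out at that limit. It ended in Rps6kc1, which encodes a ribosomal S6 kinase-like protein, and its near anchor began 4174 bp beyond the gene, so that it counts only through the widening. Lens fiber cells had no loop with an anchor at Prox1. The nearest fiber anchor was 68.0 kb away and belonged to a loop of 750 kb (31 contacts, ratio 2.54) that passed over Prox1 to a far anchor also overlapping Rps6kc1.

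A TAD of similar extent lay on the higher-coordinate side of Prox1 in all 3 cell types, and the place of its border decided whether it touched the gene. In ES cells it was 620 kb long and began at 190180001, 9.17 kb outside the gene and beyond the 5 kb widening. In epithelium it was 630 kb long and began at 190170001, and in fiber cells it was 650 kb long and began at 190155001, both inside the gene body. The listed epithelium border was thus within 1 kb of the higher-coordinate end of Prox1, where its minus-strand transcripts start. Borders of the member TADs fell on multiples of 5 kb, so that its place is not known more finely than that. Lens epithelium had a second TAD, of 70 kb, that ended 3.04 kb from the lower-coordinate end of the gene.

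Both lens cell types had a CTCF peak beyond the lower-coordinate end of Prox1, 1830 bp away in epithelium and 1796 bp away in fiber cells. Its fold enrichment was 6.27 in epithelium and 4.80 in fiber cells, and 14.9% of fiber peaks had a fold enrichment at or below the latter. Within 100 kb epithelium had another 2 peaks, absent from the fiber list. The nearer was 8.29 kb beyond the higher-coordinate end (summit 190179120, fold enrichment 6.46) and lay in the near anchor of the 600 kb epithelium loop. The far anchor of that loop held a peak in both lists (7.52 in epithelium and 9.41 in fiber cells). The peak listed in epithelium and not in fiber cells was thus at the Prox1 side of a loop that was also listed in epithelium and not in fiber cells, with 1 peak list per cell type. Whether this peak bears on that loop was not tested.

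**Figure D3:**
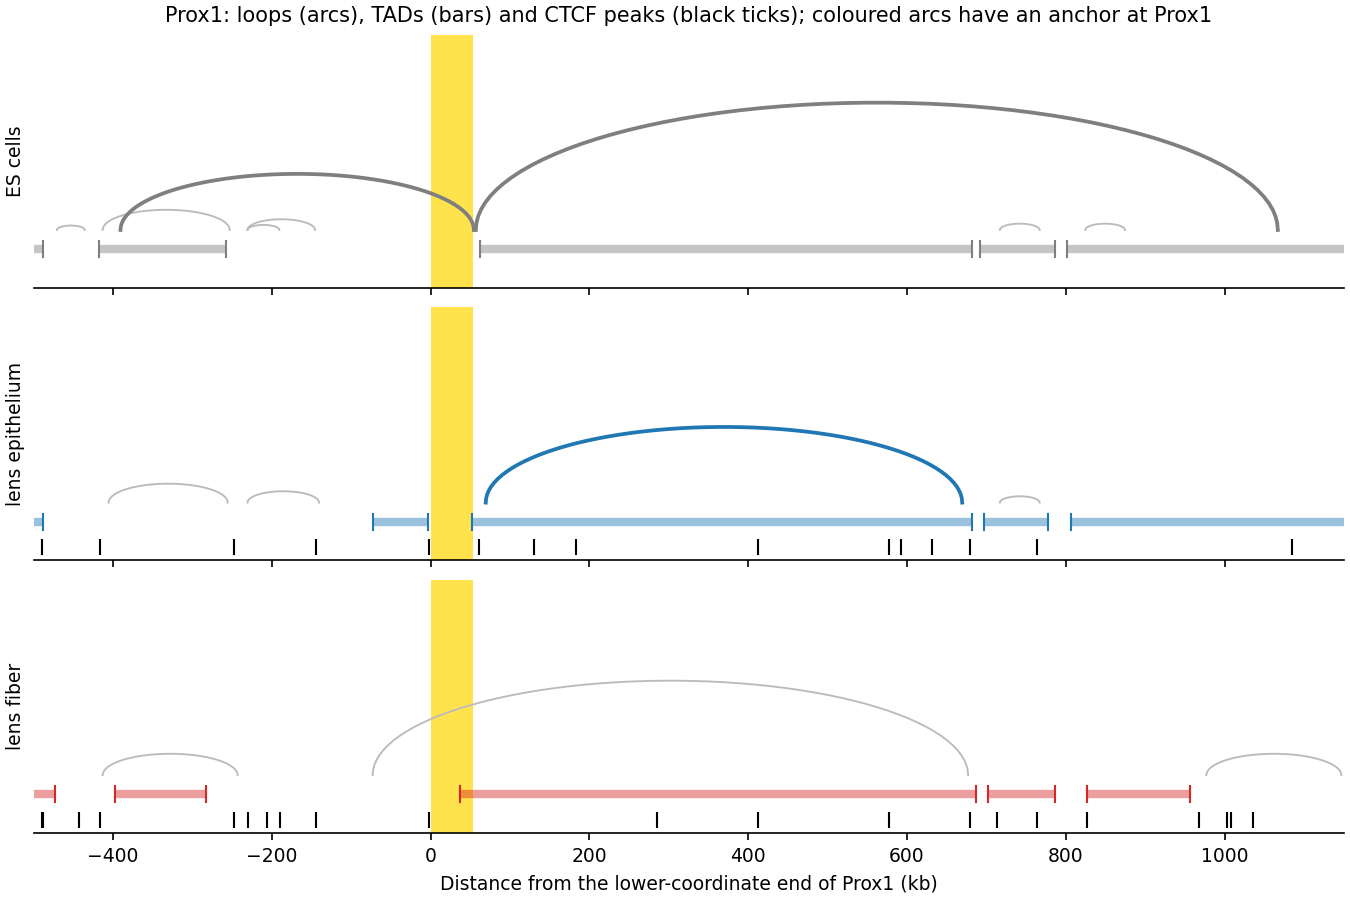
Loops (arcs), TADs (bars) and CTCF peaks (black ticks) around Prox1 (yellow); the horizontal axis is the distance in kb from the lower-coordinate end of the gene, arc height is proportional to loop size and coloured arcs have an anchor at Prox1. The 445 and 1010 kb loops appear in ES cells and the 600 kb loop in epithelium, while the 750 kb fiber loop (grey) passes over the gene; the ES cell loops to Esrrg, Hlx and Lhx4 are longer than the map.

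**Figure D4:**
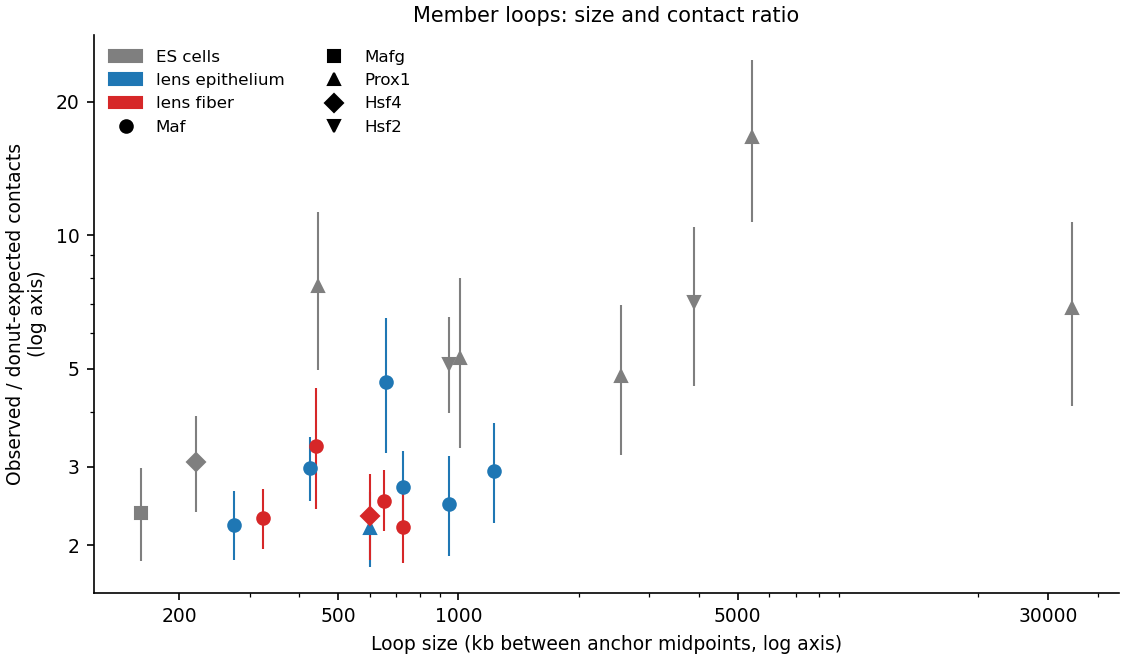
Observed over donut-expected contacts (vertical log axis) against loop size (horizontal log axis, kb) for all member loops, with colour for the list, symbol for the gene and bars for the exact Poisson 95% interval. The 7 ES cell loops of Prox1 and Hsf2 have ratios from 4.80 to 16.6, the ES cell loops of Mafg and Hsf4 have 2.36 and 3.07, and the 12 lens loops have ratios from 2.18 to 4.66; the markers of the Prox1 epithelium loop and the Hsf4 fiber loop overlap at 600 kb. Anchor widths differ from 5 to 25 kb and expected counts from 1.44 to 74.0, so these groups of ratios are not compared.

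Hsf4 (chromosome 8, 105269414 to 105275845) lies among close neighbours, with Tradd, Fbxl8, Nol3 and 4931428F04Rik inside its 16.432 kb window, so that no loop here can be assigned to Hsf4 rather than to them. In ES cells 1 loop of 220 kb with 65 contacts (ratio 3.07, 2.37 to 3.91) joined the window to Ces3a, a carboxylesterase gene. Its near anchor began 4156 bp beyond Hsf4 and overlapped Nol3, 4931428F04Rik and Exoc3l. This loop dropped out with no widening or a widening of 2 kb, and also when the largest of the 4 FDR values had to be below 0.01. In fiber cells a loop of 600 kb with 81 contacts (ratio 2.33, 1.85 to 2.89) had a near anchor overlapping Hsf4 itself, with Tradd, Fbxl8, B3gnt9 and D230025D16Rik, and a far anchor with no protein-coding gene.

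The fiber loop at Hsf4 had close counterparts in the other lists, which the 5 kb window did not count. Lens epithelium had a loop of 575 kb (66 contacts, ratio 2.37, 1.83 to 3.01) from the same far anchor to the bin next to that of fiber cells, ending 19.4 kb from Hsf4. ES cells had a loop of 600 kb (125 contacts, ratio 2.05, 1.71 to 2.45) with both anchors shifted by 25 kb, the width of a bin. The Hsf4 side of this contact was thus in the same bin in ES cells and epithelium and 1 bin further on in fiber cells, and the presence of an Hsf4 loop in fiber cells but not in epithelium rests on that bin.

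No CTCF peak overlapped the widened Hsf4 gene in either list, but fiber cells had 5 peaks within 100 kb and epithelium 3. All 3 epithelium peaks were found in the fiber list. The shared peak nearest to the gene had its summit at 105259858 in epithelium (fold enrichment 6.91) and 105259833 in fiber cells (8.35), inside the near anchor of the fiber loop. The additional fiber peaks were at 105254197 (6.08), in the same anchor, and at 105283368 (5.87), on the other side of the gene. The far anchor of the fiber loop held a peak in both lists, with fold enrichments of 7.48 and 10.9. A TAD of 155 kb covered Hsf4 in ES cells and no TAD touched it in lens, where the nearest borders were 39.4 kb away in epithelium and 34.4 kb away in fiber cells.

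**Figure D5:**
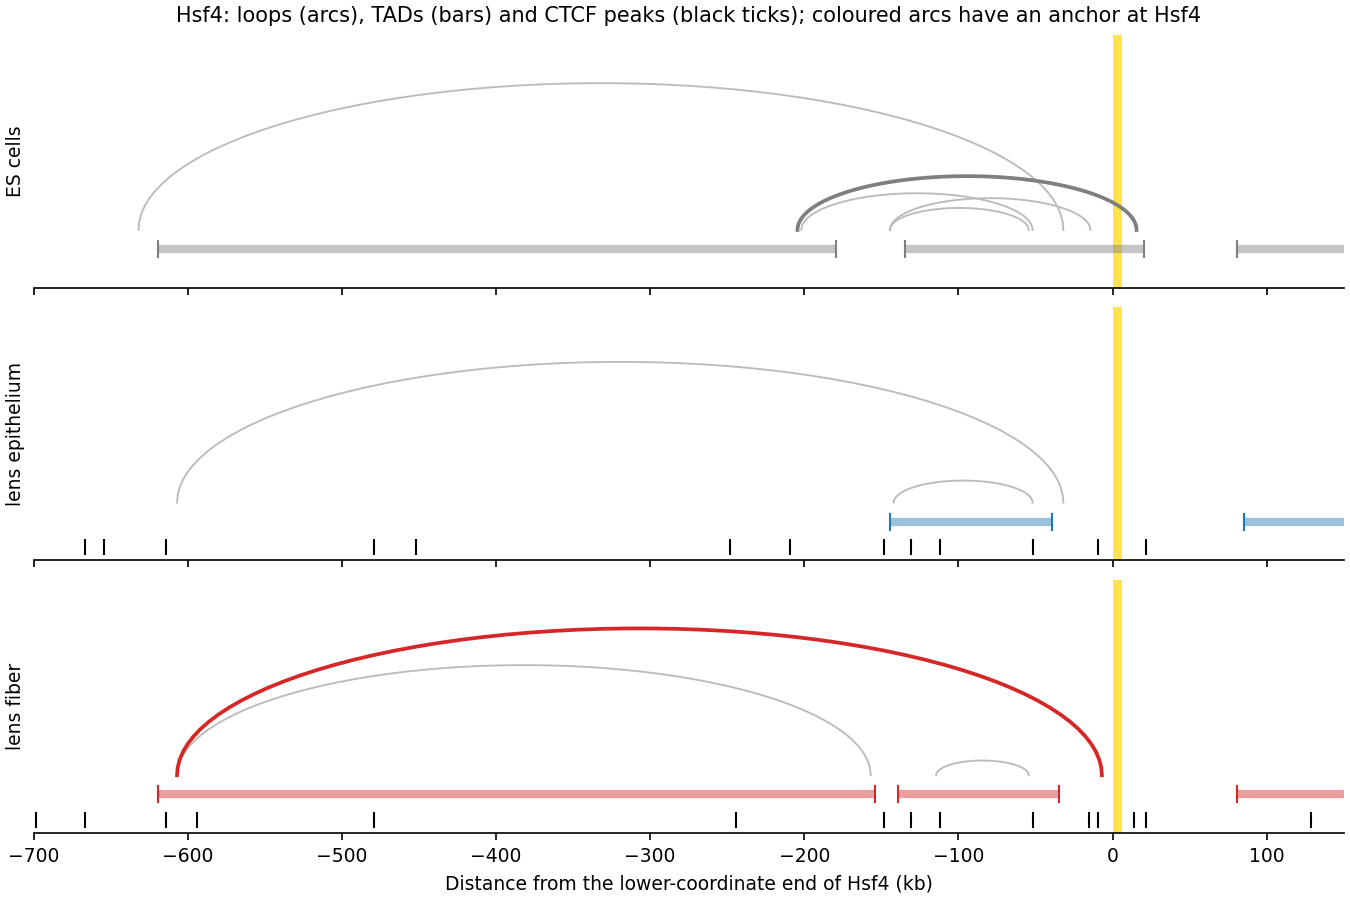
Loops (arcs), TADs (bars) and CTCF peaks (black ticks) around Hsf4 (yellow); the horizontal axis is the distance in kb from the lower-coordinate end of the gene, arc height is proportional to loop size and coloured arcs have an anchor within 5 kb of Hsf4. The large arcs of 600 kb in ES cells and 575 kb in epithelium end in the same bin on the Hsf4 side, and that of 600 kb in fiber cells ends in the next bin, which overlaps the gene.

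Hsf2 (chromosome 10, 57483766 to 57513143) had loops in ES cells only among the 3 lists. A loop of 950 kb with 66 contacts (ratio 5.13, 3.97 to 6.52) ended at Ranbp2, which encodes a nuclear pore protein. A loop of 3900 kb with 25 contacts (ratio 7.07, 4.57 to 10.4) ended at Mcm9 and Asf1a, a helicase and a histone chaperone gene. Both near anchors also overlapped the neighbouring gene Serinc1, and their anchors were 25 kb wide. The nearest lens anchor was 33.8 kb away in either list. The TAD at Hsf2, in contrast, was the same in all 3 lists, with borders at identical positions 385 kb apart (57460001 to 57845000). It was the only member TAD identical between any of the lists. Near its lower border a CTCF peak lay 20.3 kb from Hsf2, with a fold enrichment of 5.28 in epithelium and 12.2 in fiber cells. The share of peaks with a fold enrichment at or below it was 34.6% in the epithelium list and 96.4% in the fiber list. All 3 peaks within 100 kb of Hsf2 were shared between the lens lists.

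The small Maf genes had few features. Mafg (chromosome 11, 120625117 to 120634955) had 1 loop, in ES cells, of 160 kb with 70 contacts (ratio 2.36, 1.84 to 2.98). Its near anchor also overlapped Sirt7 and its far anchor overlapped Rfng, Gps1 and Dus1l, which encode a fringe glycosyltransferase, a COP9 signalosome subunit and a tRNA-modifying enzyme. In lens the nearest anchor was 45.1 kb away in both lists. Mafg was covered by a TAD of 90 kb in ES cells and touched by none in lens. Within 100 kb of Mafg there were 7 CTCF peaks in fiber cells and 2 in epithelium, of which 1 was shared, but none lay within 5 kb of the gene. With the fiber list the longer and no genome-wide count beside them, no difference between cell types is read from these counts.

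Mafk (chromosome 5, 139791536 to 139802653) had no loop and no TAD in any list. In all, 47.9% of genes had no loop in any list and 46.1% no TAD. The nearest anchors were 27.3 kb away in ES cells and 22.3 kb away in both lens lists. Mafk was passed over by 8 ES cell loops and by 0 loops of either lens list. The smallest of these joined Uncx and Elfn1 over 365 kb (35 contacts, ratio 8.87). Further loops joined Uncx to the homeobox genes Gsx1 (7650 kb, 15 contacts), Pdx1 (7730 kb, 18 contacts) and Cdx2 (7760 kb, 21 contacts). Others joined Uncx to Tnrc18 (3270 kb, 29 contacts), Lhx5 to Tnrc18 (22375 kb, 17 contacts) and Pdgfa to Elfn1 (910 kb, 18 contacts). The last joined a site without a gene to Wasf3 (7910 kb, 30 contacts), with a ratio of 227, the highest of the 8. Loops passing over a gene were not counted for all genes, and the paper reports more loops of several Mb in ES cells than in lens. The counts of 8 and 0 are thus not read as a feature of Mafk. Lens epithelium had a CTCF peak 1392 bp from Mafk that was absent from the fiber list. It was weak, with a fold enrichment of 3.81, and 2.82% of epithelium peaks were at or below it.

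Taking the 6 genes together, 3 had a CTCF peak in epithelium and 2 in fiber cells, against 31.2% and 45.9% of all genes. The 2 fiber peaks, at Maf and Prox1, overlapped epithelium peaks. Within 100 kb of these genes, 12 of 16 epithelium peaks and 12 of 23 fiber peaks were shared. By the paper's counts, most peaks of the whole epithelium list were shared with fiber cells too. Nothing about these genes is thus read from the shared counts. Both anchors held a CTCF peak of their own cell type in 3 of the 7 epithelium loops, against 15.7% of all epithelium loops, and in 4 of the 5 fiber loops, against 39.1% of all fiber loops. Of these 7 loops 5 shared the near anchor peak at Maf, so they are not independent. A wider anchor has more room for a peak, and all but 1 of the member loops in each lens list had anchors 25 kb wide. Over the whole lists, 6664 of 16010 epithelium anchors and 6582 of 15360 fiber anchors were that wide. The shares over all loops are thus not a comparison at like width. No ES cell loop of the 6 genes had peaks of 1 lens list at both anchors.

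Among 13 relatives and partners of these factors, 7 had a loop in ES cells, 4 in epithelium and 4 in fiber cells, beside shares of 37.3%, 36.2% and 34.5% over all genes. The counts in lens were near those shares. Bach2, a partner of the small Mafs that spans 347.697 kb, had 4, 3 and 4 loops in ES cells, epithelium and fiber cells. Bach1 had 1 loop in each lens list and none in ES cells, while Mafa, Nfe2, Nfe2l2 and Nfe2l3 had loops in ES cells and none in lens. Hsf5 had 2, 1 and 1. Maff, Nrl, Nfe2l1, Hsf1 and Prox2 had none.

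Among 16 genes known as targets or effectors of these factors, 6 had a loop in ES cells, 6 in epithelium and 7 in fiber cells, near the same shares over all genes (37.3%, 36.2% and 34.5%). The αA-crystallin gene Cryaa, which Maf activates, had a single loop, in fiber cells, of 325 kb with 83 contacts (ratio 2.33). Its anchors overlapped Slc37a1 and U2af1 and not Cryaa, so that it counts only through the widening. Crybb1, a β-crystallin gene bound by Maf and Prox1, had 1 loop in each lens list, of 100 kb in epithelium (154 contacts, ratio 2.07) and 80 kb in fiber cells (71 contacts, ratio 2.48), and none in ES cells. The near anchors of both overlapped the neighbouring gene Cryba4 and not Crybb1, so that they too count only through the widening. Dnase2b, the nuclease of fiber denucleation that depends on Hsf4, had a loop of 350 kb to Ttll7 in ES cells and in epithelium (167 and 91 contacts) and a loop of 200 kb to Prkacb in fiber cells (55 contacts). Of the 6 γ-crystallin genes, which lie side by side apart from Crygf, Cryge alone had a loop, in ES cells. A CTCF peak was listed at 2 of the 16 genes in epithelium and at 9 in fiber cells, against the shares of 31.2% and 45.9% over all genes. Of these 9 genes, 7 had no peak in the epithelium list, which is the shorter of the lists. The share of all genes with a peak in the fiber list only was not counted, so nothing about the targets is read from this. The fiber peaks of Cryaa, Crybb1, Cryga, Crygc and Cdkn1b had fold enrichments of 4.41, 2.73, 3.90, 4.07 and 4.87, below the lower quartile of the fiber list, which was 5.27. The paper reports broad, raised CTCF signal over the bodies of Cryaa, Crybb1 and the γ-crystallin cluster in fiber cells. The fold enrichment of a listed peak is not a measure of such signal, which was not examined here. The fiber peak of Fgfr3 had a fold enrichment of 5.90, and the 2 fiber peaks of Fgfr2 had 3.28 and 7.01.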

How the data were processed

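Per the labels, reads were mapped to mm10, and BWA, Juicer and MACS2 are named in the submitters' processing notes. The authors merged both Hi-C replicates of each cell type and called loops with HiCCUPS (juicer_tools 2.13.06, per the file headers) and TADs with Arrowhead. The observed value of a deposited loop is a raw count of contacts, the expected values are counts that HiCCUPS modelled from the surroundings, and each FDR is a q-value. The authors called CTCF peaks with MACS2, and each deposited peak carries a fold enrichment, a score, and both its p-value and its q-value as −log10. The number of reads behind the peaks was not used here.

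Overlaps of at least 1 bp were counted in Python 3.11.15 with pandas 2.3.3, scipy 1.17.1 and numpy 2.4.6, and figures were made by matplotlib 3.10.9. The functions were tested on simulated data. Genes were those of the RefSeq table, which gives ends but no strand or exons. Promoter windows were matched by symbol, for 4 of the 6 genes (Prox1, Mafk, Hsf2 and Mafg). The 6 genes and the lists of 13 relatives and 16 targets were chosen with earlier results of these data known. Genes named are these, the genes at far anchors of their loops, and neighbours in the same windows; genes at other ends of the Lhx4 anchor, at loops over Mafk and at loops of the listed genes were named after their values were seen.

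Alternatives varied the widening of the genes, loop FDR (below 0.01), anchor width, list length, tolerance for shared loops, TAD size and nesting, peak strength and overlap rule. Some results that need a withheld item were left out.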

Additional observations from a re-analysis of the deposited data

How the results depend on the processing

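No paired analysis was possible because the replicates were merged in each list, and no result comes from a test. Of 74 recounts, 53 lay within 1.5 times the count given above and 21 did not. With no widening or a widening of 2 kb, the epithelium loops went from 7 to 4 and the members with a loop there from 2 to 1, since Prox1 and the Maf anchors beside the gene dropped out. With anchors of 10 kb or less, the loops numbered 5 in ES cells, 1 in epithelium and 1 in fiber cells, with 1 member in each lens list. With an anchor midpoint required in the widened gene, 1 member had a loop in either lens list. At a tolerance of 25 kb, 1 fiber loop, that near Hsf4, was found in ES cells, against 0 at 10 kb. With TADs of at least 200 kb, 2 were left in ES cells. CTCF peaks numbered 0 in both lists with no widening, 1 in fiber cells at 2 kb, and 5 in epithelium and 4 in fiber cells at 10 kb. In fiber cells 1 peak, at Maf, remained with a fold enrichment of at least the list's median, and likewise in a list cut to the length of the epithelium list by −log10 q. With peaks of either lens list, an alternative chosen after seeing the data like the TAD count at 10 kb, 5 epithelium loops had a peak at both anchors. Maf had no ES cell loop and at least 1 loop in each lens list under every recount of loops. A list without replicates cannot show whether a missing loop is absent or under the calling threshold.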
